A study of Mus musculus with 18 samples.

Results

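The comparison described here sets mouse kidneys 3 weeks after unilateral ischemia and reperfusion (UIR) directly against kidneys 3 days after it, with no subtraction of sham values. It uses 6 of the 18 RNA-sequencing libraries of a time course, 3 at each time. Of the 20825 genes in the deposited table, 14716 reached at least 1 FPKM (a level corrected for transcript length and for the number of fragments mapped in the library) in at least 3 of the 18 libraries, and these were tested. In UIR the vessels of the right kidney were clamped for 45 minutes and then released, while the left kidney was left in place. All mice were C57BL/6 with a labelled age of 11 weeks, and each group holds 3 biological replicates. The 4 groups used are UIR at 3 days, UIR at 21 days (called 3 weeks here), and sham-operated mice at the same times. The kidney that was sequenced and the sex of the mice are not named in the labels, and the RNA is from frozen kidney tissue, so every level is a mean over all cell types present.

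After ischemia, the proximal tubule, the segment that reabsorbs most of the filtrate and depends on mitochondrial fatty acid oxidation, is the part of the nephron most damaged. Surviving tubule cells lose their transporters, switch on injury genes such as Havcr1 (kidney injury molecule-1), enter the cell cycle and can rebuild the epithelium. Where repair stays incomplete, monocyte-derived macrophages, dendritic cells and lymphocytes collect between the tubules, and fibroblasts and pericytes deposit collagen, the tissue change called fibrosis. The clamped kidney of the unilateral model, with the other kidney intact, is known for such atrophy and fibrosis.

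The FPKM sums of the 12 libraries in the 4 groups ran from 424207 to 549490, with 427476 to 434527 in the day-3 and 424207 to 438194 in the 3-week UIR group. Genes at 1 FPKM or more numbered 13519, 13353 and 13243 at day 3 and 14147, 14156 and 14043 at 3 weeks, so the groups did not overlap, and the exact permutation test gave its smallest possible two-sided p of 0.1. Umod, made by the thick ascending limb of the kidney, was present at 316 to 932 FPKM in all 12 libraries. Within each UIR group 1 library stood apart. At 3 weeks, library 3 had summed proximal tubule transport genes of 309.9 FPKM against 661 and 879.9 in libraries 1 and 2, and the highest sums of T cell genes (512) and class II antigen presentation genes (12227). At day 3, library 3 had the lowest sums of collagen chains (564 against 985 and 792) and of T cell genes (66.1 against 185 and 134). Counts of a list's genes without these libraries are given where its larger count moved by over 1.5 times, and for some other lists.

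From day 3 to 3 weeks, most listed genes of immune cells, matrix and stroma rose, and most of cell division, ribosome production and mitochondrial energy supply fell. The largest increases were Retnla, a secreted product of alternatively activated macrophages, and Mmp12, macrophage elastase. Retnla was listed at 0, 0.19 and 0 FPKM in the 3 day-3 libraries and at 84.02, 57.5 and 84.3 FPKM at 3 weeks. It was thus at or near 0 in every day-3 kidney and abundant in every 3-week kidney (log2 difference 6.15 ± 0.13, adjusted p = 4.39e-14, limma with Benjamini-Hochberg adjustment over all genes tested, as for every adjusted p). Mmp12 went from 1, 0.55 and 0.86 to 95.4, 102 and 105 FPKM (log2 difference 5.83 ± 0.13, adjusted p = 4.39e-14). The largest decrease was Havcr1, from 1044, 1140.2 and 1343 to 45.5, 61.6 and 14.99 FPKM (log2 difference -5.02 ± 0.56, adjusted p = 1.7e-06). The 3-week values lay far below every day-3 value, yet above the sham value at 3 weeks of 0.653 ± 0.0902 FPKM.

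Of 14716 genes tested, 8268 (56.2%) passed an adjusted p of 0.05, 4738 of them higher (32.2%) and 3530 lower (24.0%) at 3 weeks. By at least 2-fold on the log2(FPKM + 1) scale, on which changes of genes with low FPKM are understated, 1631 (11.1%) were higher and 732 (4.97%) lower. The 3 values of one time all lay above the 3 of the other for 10190 genes (69.2%), and the median over all genes was a log2 difference of 0.056. The split depends on the scaling: 57.3% of the calls were higher as deposited, 47.9% after median-of-ratios scaling and 45.3% after quantile normalization, which lowered the median of all genes by 0.117. Between the sham groups of the same times, 5 genes (0.0340%) passed, though 2284 had an unadjusted p under 0.05, 22.1% did not overlap between the groups, and 419 genes passed without library 3 of the day-3 sham group. The change over time in UIR kidneys differed from that in sham kidneys for 6800 genes (46.2%), 3834 in the higher (26.1%) and 2966 in the lower direction (20.2%). A gene written below as higher or lower passed the threshold in the comparison of the UIR groups, and gene lists are described by their counts and medians with no test of the list. A gene that is low in all other libraries can pass the filter through the 3 late UIR libraries alone. Counts of lists that hold such genes are tilted towards higher.

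**Figure D1:**
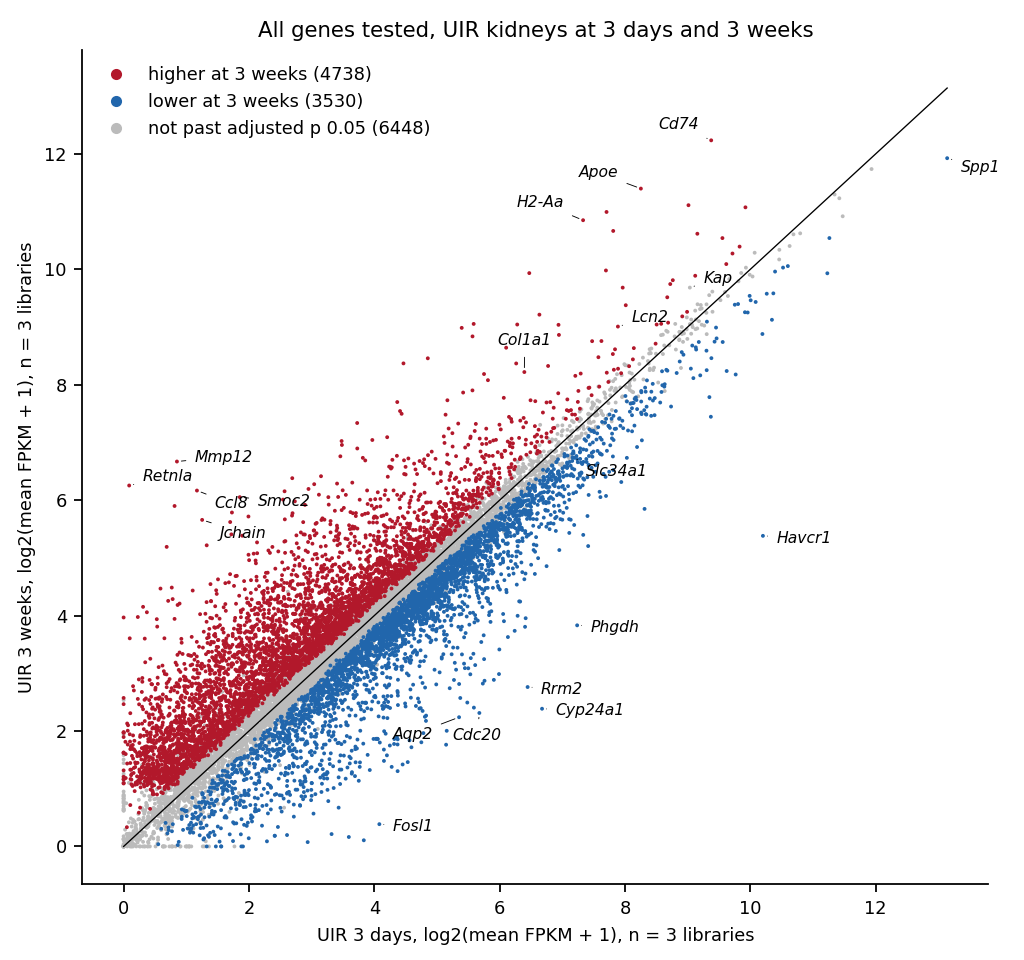
Mean level of each of the 14716 genes tested in UIR kidneys at 3 days (x axis) and 3 weeks (y axis), as log2 of the mean FPKM of 3 libraries plus 1, with the line of equal levels. Red marks the 4738 genes higher and blue the 3530 genes lower at 3 weeks at an adjusted p of 0.05. Retnla and Mmp12 stand far above the line and Havcr1 far below it.

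Other large increases were those of Ear2 (an eosinophil-associated ribonuclease, 0.757 to 58.7 FPKM, with near-identical copies in the genome), the chemokine Ccl8 (1.25 to 70.8), Jchain (1.38 to 49.5), the matrix protein Smoc2 (2.61 to 65.3) and Mmp7, matrilysin (0.61 to 35.5). Ms4a7, Clec7a, Cd209a and Ccl22, genes of myeloid cells, rose by log2 differences between 3.81 and 4.12. Serpina3n, a protease inhibitor of the acute phase response, rose by 3.86. Mucl1, a small secreted mucin-like protein, was listed at 0 in all 3 day-3 libraries and at 21.4, 6.54 and 16.01 FPKM at 3 weeks. Mmp7 was uneven at 3 weeks, with 19.1, 19.7 and 67.7 FPKM and library 3 the highest, and all 3 values exceeded every day-3 value.

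Among the largest decreases, after Havcr1, came Cyp24a1, the enzyme that inactivates vitamin D hormone, from 101 ± 36.6 to 4.23 ± 0.828 FPKM (log2 difference -4.24 ± 0.50, adjusted p = 2.91e-06). It went from above the sham level at day 3 (14.1 FPKM) to below it at 3 weeks (28.2). Fosl1, a subunit of the AP-1 transcription factor, fell from 15.9 ± 1.9 to 0.307 ± 0.0902 FPKM. Phgdh, the first enzyme of serine synthesis, fell from 149.8 ± 8.07 to 13.2 ± 1.74 FPKM, and Rrm2, a ribonucleotide reductase subunit that supplies DNA precursors, from 86.2 ± 17.4 to 5.78 ± 1.45. Gsta1 (13.2 to 0.0767 FPKM, with close copies) and Alb (11.1 to 0.12) also fell. At 3 weeks Alb was below its sham level of 3.03 FPKM, and Gsta1 did not differ from sham beyond the threshold (adjusted p = 0.592). Timd2, a ferritin receptor, was at 31.98, 34.1 and 37.9 FPKM at day 3, where its difference from sham did not pass (adjusted p = 0.835), and at 2.8, 5.28 and 0.95 at 3 weeks. The cell-cycle genes Cdc20, Ccnb1, Ccnb2, Cdkn3, Nek2 and Ect2 and the collecting duct water channel Aqp2 make up the rest of the 15 largest decreases.

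**Figure D2:**
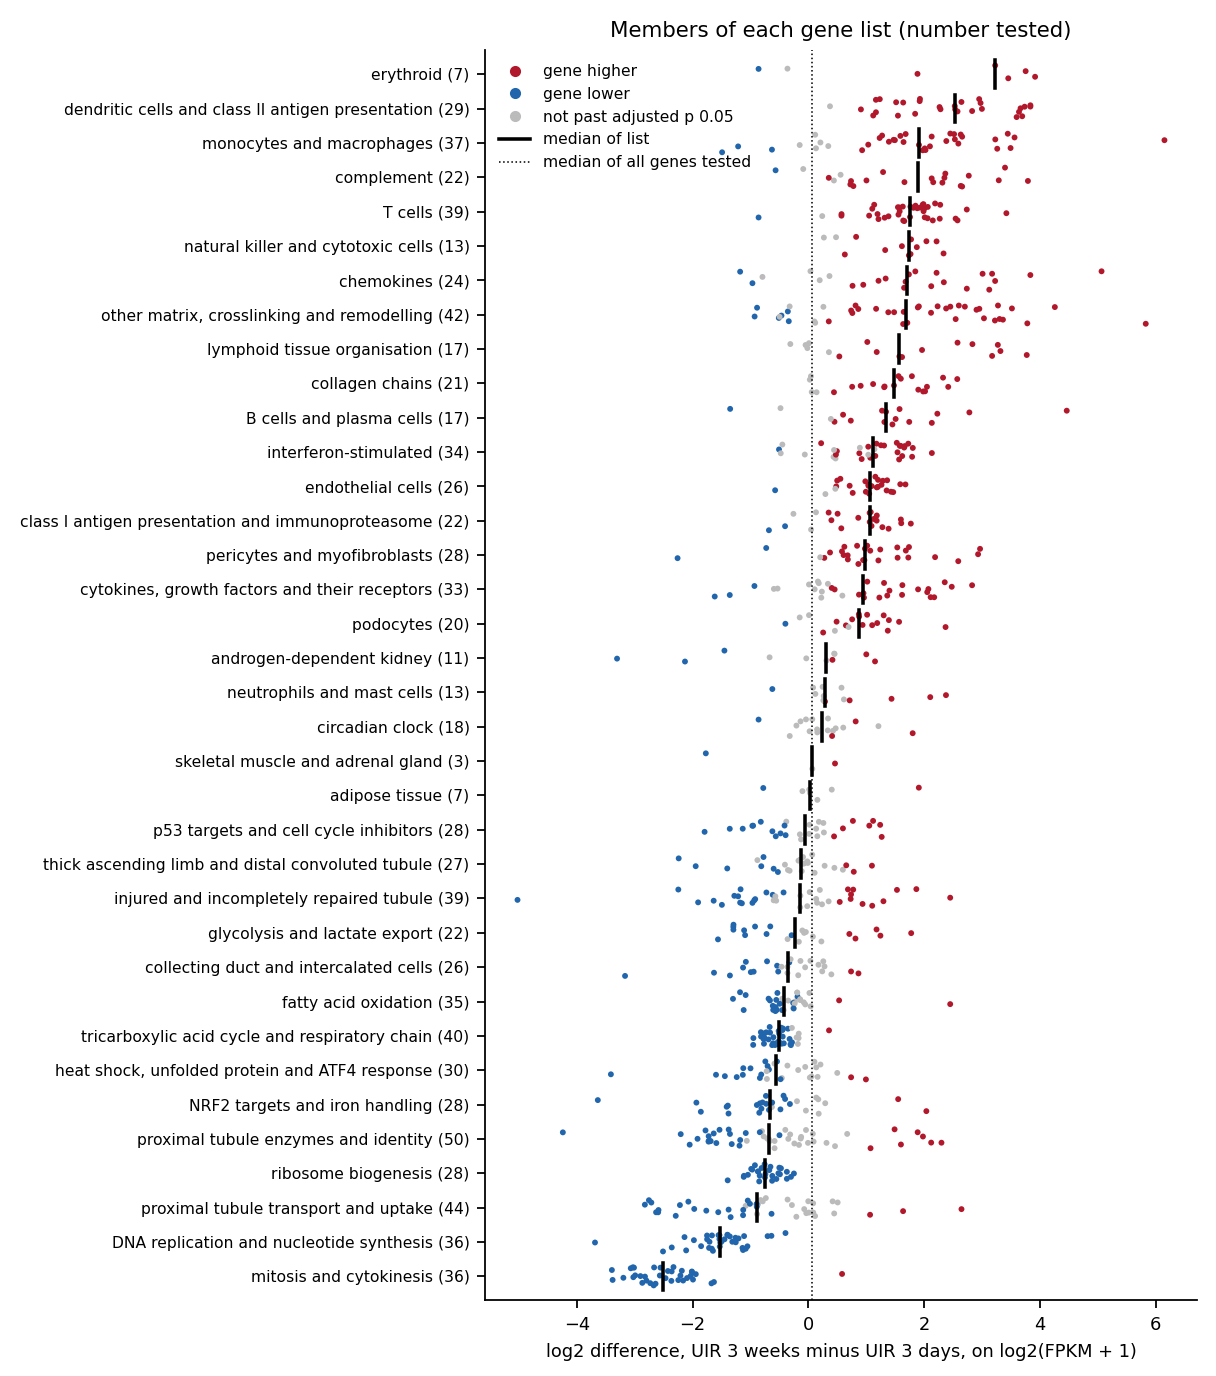
Log2 difference (UIR 3 weeks minus UIR 3 days) of every tested member of 36 gene lists, with a bar at each list's median and a dotted line at the median of all genes, 0.056. Mitosis genes lie at the bottom with a median of -2.51, and class II antigen presentation genes near the top with 2.53.

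Genes of cell division fell almost without exception. Of 36 mitosis genes 35 fell (24.0% of all genes tested fell) and 1 rose, with a median log2 difference of -2.51, and of 36 DNA replication genes all 36 fell, with a median of -1.53. Mki67, the proliferation antigen, was at 54.3, 43.8 and 58.4 FPKM at day 3 and at 5.99, 5.75 and 6.47 FPKM at 3 weeks (log2 difference -2.90 ± 0.11, adjusted p = 3.68e-11). All 3 late kidneys lay below all early ones, and all 3 lay above the sham level of 0.41 ± 0.166 FPKM. Cdc20, the activator of the anaphase-promoting complex, fell from 50.1 ± 5.35 to 3.97 ± 1.41 FPKM, and the mitotic cyclins Ccnb1 and Ccnb2 from 34.4 to 2.39 and from 47.1 to 4.297. Of the replication genes, the helicase subunit Mcm5 fell from 37.96 ± 2.93 to 8.07 ± 1.47 FPKM, thymidine kinase Tk1 by 2.51 on the log2 scale and the DNA methylation maintenance factor Uhrf1 by 2.36. The exception, Pttg1 (securin, the inhibitor of sister chromatid separation), rose from 33.7 ± 2.52 to 50.9 ± 4.26 FPKM, the sham level being 49.99 ± 1.15. Relative to sham, the median of the mitosis list was 4.06 at day 3 and 1.5 at 3 weeks, and 34 of 36 genes still exceeded sham at 3 weeks (60.7% of all genes did). In bulk tissue, fewer cells of a type and less RNA per cell cannot be told apart, here and for every cell type below.

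Many promoters of cell-cycle genes are known to carry a CCAAT box, a cell-cycle homology region or an E2F element, and these letters were searched for in the listed genes. Shown are 280 bases, from 250 before the annotated start to 30 after it, of Cdc20 (chr4:118437314-118437593, minus strand) and Ccnb2 (chr9:70421525-70421804, minus strand), mitosis genes among the 15 largest decreases that hold both elements, and of Mcm5 (chr8:75109259-75109538, plus strand), all from RefSeq on GRCm38.p6. In Cdc20 and Ccnb2 capitals mark the cell-cycle homology region TTTGAA and the CCAAT box, and in Mcm5 the E2F element.
Cdc20: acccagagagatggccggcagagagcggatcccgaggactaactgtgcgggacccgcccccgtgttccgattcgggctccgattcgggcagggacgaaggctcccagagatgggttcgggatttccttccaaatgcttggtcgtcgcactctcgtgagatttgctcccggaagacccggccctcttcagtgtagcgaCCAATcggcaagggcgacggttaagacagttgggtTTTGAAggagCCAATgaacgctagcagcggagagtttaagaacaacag
Ccnb2: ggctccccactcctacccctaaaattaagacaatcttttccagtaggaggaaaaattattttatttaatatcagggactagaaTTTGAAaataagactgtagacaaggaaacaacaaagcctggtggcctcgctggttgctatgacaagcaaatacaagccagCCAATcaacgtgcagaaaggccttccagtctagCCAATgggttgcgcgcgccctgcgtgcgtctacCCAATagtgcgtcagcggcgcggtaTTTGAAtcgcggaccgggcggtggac
Mcm5: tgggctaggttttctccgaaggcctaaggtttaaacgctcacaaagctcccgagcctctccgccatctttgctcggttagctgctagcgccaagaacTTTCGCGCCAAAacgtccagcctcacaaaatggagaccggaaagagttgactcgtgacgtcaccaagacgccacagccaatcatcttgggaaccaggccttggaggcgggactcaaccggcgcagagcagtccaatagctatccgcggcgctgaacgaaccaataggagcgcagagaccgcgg
Letters were searched on both strands in the 300 bases from 250 before to 50 after each start, and matches describe letters only, not binding. TTTGAA was found in 22 of 31 promoters of 29 mitosis genes (71.0%), against 12.5% of the 14526 promoters of tested genes and 17.9% of all 32851. CCAAT was found in 77.4% of the mitosis promoters, against 37.2% and 37.4%, and both together in 64.5% against 4.96% of the promoters of tested genes. An E2F element (TTTGGCGC, TTTCGCGC or TTTCCCGC) was found in 13 of 36 promoters of 30 replication genes (36.1%), against 3.15% and 1.84%. Mcm5 is shown as an example of a replication gene with an E2F element. In its promoter, TTTCGCGC and the reverse complement of TTTGGCGC overlap by 4 letters. No E2F element was found in the promoters of Rrm2, Tk1 and Mcm10, replication genes that also fell. For Uhrf1, a promoter held the element and another did not.

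Genes of ribosome production fell too, and so did a part of the genes of several stress responses. All 28 of 28 ribosome biogenesis genes fell, with a median of -0.75. The nucleolar factors Nop58 and Nolc1 fell from 43.5 ± 1.8 to 20.6 ± 1.91 and from 34.6 ± 1.94 to 16.9 ± 0.413 FPKM, and Myc, a driver of ribosome production, from 36.5 ± 4.29 to 13.2 ± 0.7 (log2 difference -1.39 ± 0.38, adjusted p = 0.0053). Of 30 genes of the heat shock, unfolded protein and ATF4 responses 14 fell (46.7%, against 24.0% of all genes tested), 2 rose and 14 did not pass. Leaving out 1 UIR library left 10 to 12 lower. Against the sham change 10 were lower beyond the threshold (20.2% of all genes tested were). The serine and asparagine synthesis genes Phgdh, Psat1 and Asns fell by 3.41, 1.6 and 1.13 on the log2 scale, and the chaperones Hspd1 and Hsp90aa1 by 1.44 and 1.24. The members that rose were Hspb8 and Atf3, the latter from 9.19 ± 1.11 to 19.4 ± 3.1 FPKM (adjusted p = 0.0189), a call lost without library 1 of day 3 (log2 difference 0.92, adjusted p = 0.058) or library 3 of 3 weeks (log2 difference 0.88, adjusted p = 0.0667).

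Of 22 glycolysis genes 10 fell and 5 rose (45.5% and 22.7%, against 24.0% and 32.2% of all genes tested). Eno1, the enzyme enolase, was at 615, 637 and 698 FPKM at day 3 and 204, 235 and 219.9 at 3 weeks (log2 difference -1.56 ± 0.10, adjusted p = 2.67e-09), and Gapdh, Pgam1, Pgk1 and Ldha fell by between 1.11 and 1.30 on the log2 scale. No late value of Eno1 reached an early one. The glucose transporter Slc2a1 fell from 42.6 to 19.4 FPKM. Those that rose included the regulator Pfkfb3 (6.38 to 16.5 FPKM), another glucose transporter, Slc2a3 (0.977 to 3.397) and Hk3, a hexokinase of myeloid cells (2.003 to 8.697). The summed FPKM of the list was 5410.4 to 5838 at day 3, overlapping the sham sums at both times (5536 to 6391 and 5448 to 5956), and 2727 to 2756 at 3 weeks. Abundant members weigh most in such a sum. By gene, 12 of 22 were higher and 4 lower than sham at day 3 (57.6% and 17.9% of all genes tested), with a median log2 difference of 0.49. At 3 weeks 9 were higher and 9 lower than sham (60.7% and 20.1% of all genes tested), with a median of 0.17.

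Injury genes of the tubule did not move together. Of 39 tested, 16 fell (24.0% of all genes tested did) and 11 rose, with a median of -0.14. The share that rose, 28.2%, was near the 32.2% of all genes tested. At 3 weeks 35 still exceeded sham (60.7% of all genes did). Havcr1 (above), Krt20 (45.5 ± 12.6 to 8.6 ± 1.44 FPKM), the calcium-binding protein S100a6 (661 ± 146 to 173 ± 16.7) and Sox9, a factor of regenerating tubule cells (27.5 ± 5.37 to 11.6 ± 1.79, adjusted p = 0.00415), fell. Lcn2, which encodes neutrophil gelatinase-associated lipocalin, a secreted injury marker, was at 197, 208 and 302 FPKM at day 3 and 446, 394 and 702 at 3 weeks (log2 difference 1.10 ± 0.38, adjusted p = 0.0207). The 2 groups did not overlap and both were far above sham (2.53 ± 1.6 FPKM at 3 weeks), but the call was lost without UIR library 1 or 2 of day 3 (log2 difference 0.98, adjusted p = 0.0689, and log2 difference 1.03, adjusted p = 0.0622) or library 3 of 3 weeks (log2 difference 0.85, adjusted p = 0.0956). Vcam1, an adhesion molecule that injured tubule cells and endothelium can carry, fell from 185, 167 and 180 to 109, 109 and 103 FPKM, which left it far above sham (1.91). Spp1, osteopontin, fell from 9027 ± 1030 to 3887 ± 389 FPKM, again above the sham value of 411 ± 74. Anxa1, an anti-inflammatory annexin, rose from 26.4 to 98.9 FPKM, and the growth factor Tgfb2 from 2.503 to 9.06.

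**Figure D3:**
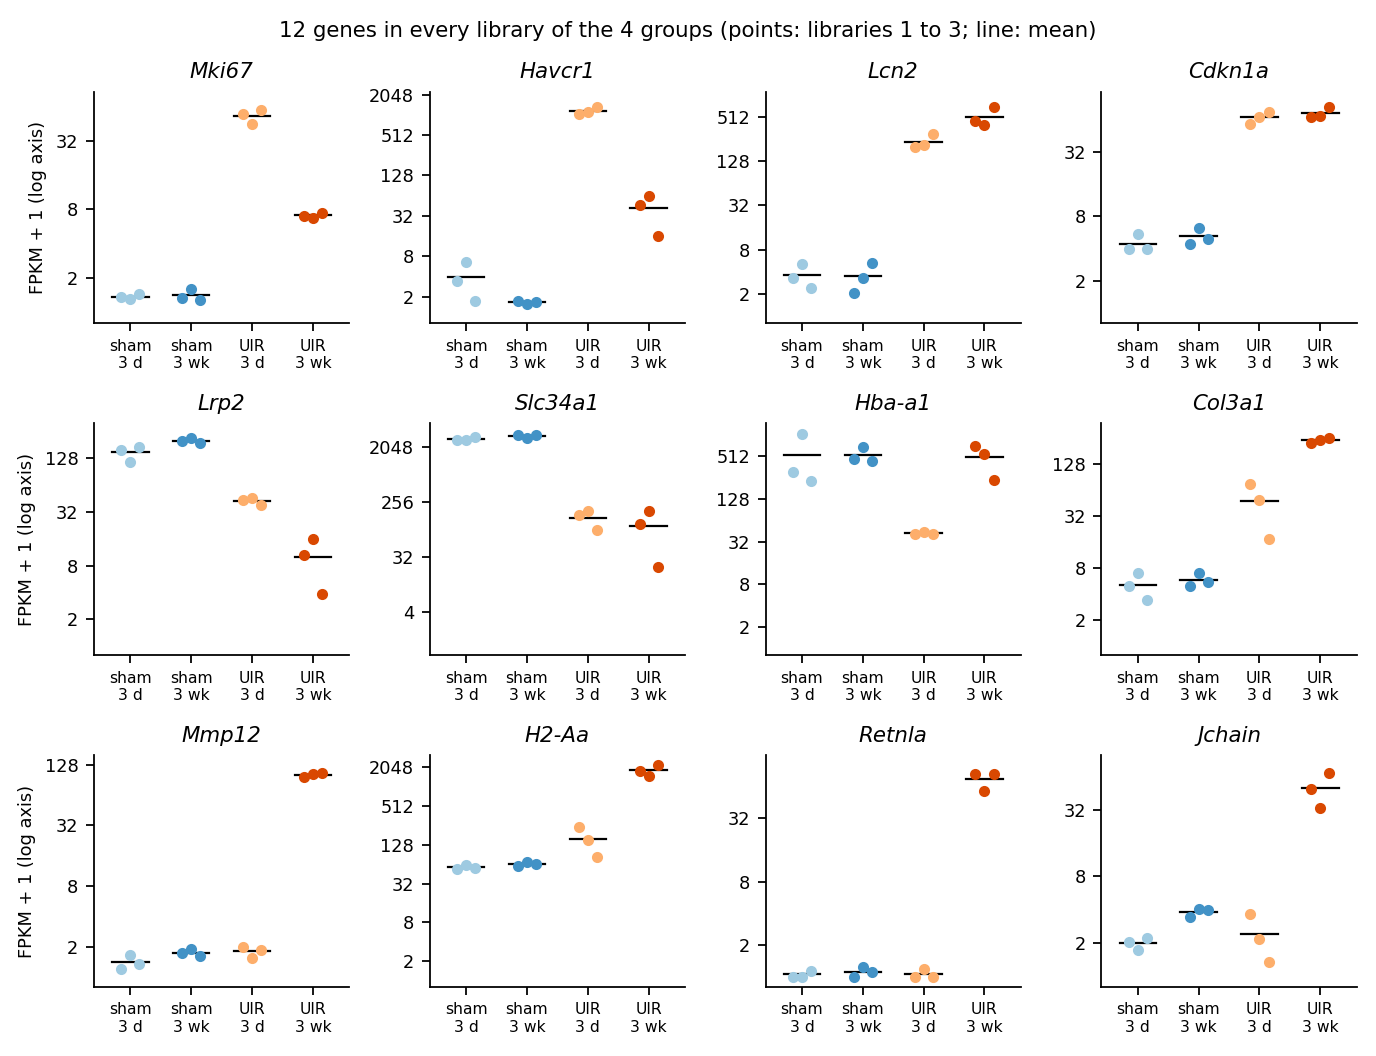
FPKM plus 1 on a log axis for 12 genes in each library of the sham and UIR groups at 3 days and 3 weeks, with a line at each group's mean of 3 libraries. Mki67 and Havcr1 fall between the UIR groups while Lcn2, Col3a1, Mmp12, H2-Aa, Retnla and Jchain rise, and the 3-week library with the lowest Lrp2 and Slc34a1 is library 3.

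Proximal tubule genes, already far below sham at day 3, were mostly lower or not past the threshold at 3 weeks. Of 44 transport genes 21 fell and 3 rose (median -0.89), and of 50 enzyme and identity genes 21 fell and 7 rose (median -0.68). Without library 3 of 3 weeks these became 16 and 6 (median -0.31) and 18 and 10 (median -0.09), so the medians depend on that library. The endocytic receptor Lrp2 (megalin) was at 42.3, 44.4 and 36.9 FPKM at day 3 and 9.47, 14.8 and 2.83 at 3 weeks (log2 difference -2.29 ± 0.41, adjusted p = 0.000184). Every late value lay below every early one, and sham kidneys held 198 ± 11.9 FPKM at 3 weeks. Its partners Cubn and Amn fell by 2.63 and 2.71 on the log2 scale. Hnf4a, the transcription factor that maintains proximal tubule identity, fell from 123, 126 and 119 to 38.1, 46.1 and 18.1 FPKM (log2 difference -1.92 ± 0.25, adjusted p = 7.77e-06).

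Some proximal tubule genes were lower from day 3 on and did not fall further beyond the threshold. Slc34a1, the main phosphate transporter, was at 159.9, 181 and 87.1 FPKM at day 3 and 113, 181 and 21.4 at 3 weeks (log2 difference -0.82 ± 0.54, adjusted p = 0.209), against 3115 in sham kidneys. The 2 UIR groups overlapped. Single libraries decided the difference: without library 2 of 3 weeks it passed (log2 difference -1.44, adjusted p = 0.0278), and without library 3 of 3 weeks it was near 0 (log2 difference 0.07, adjusted p = 0.877). Slc22a6, an organic anion transporter (log2 difference -0.90 ± 0.44, adjusted p = 0.0964), and Slc5a2, the glucose transporter SGLT2 (log2 difference -1.08 ± 0.46, adjusted p = 0.0554), also missed the threshold. Slc22a6 passed without library 1 or 2 of 3 weeks (log2 difference -1.24, adjusted p = 0.0397, and log2 difference -1.25, adjusted p = 0.0361), and Slc5a2 without library 2 of 3 weeks (log2 difference -1.67, adjusted p = 0.00293) or library 3 of day 3 (log2 difference -1.33, adjusted p = 0.0425). Slc5a2 also passed under median-of-ratios scaling (adjusted p = 0.04), quantile normalization (0.0452), with a replicate block in the fit (0.0328) and with library weights (0.0284). Without library 3 of 3 weeks both differences shrank, Slc22a6 to -0.20, adjusted p = 0.608 and Slc5a2 to -0.31, adjusted p = 0.372 as log2 differences. The glucose transporter Slc2a2, by contrast, did not differ from sham beyond the threshold at day 3 (adjusted p = 0.522) and fell from 39.9 ± 4.7 to 6.03 ± 4.07 FPKM.

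A minority of the genes listed for the proximal tubule rose, and which cells carried these transcripts was not tested. The water channel Aqp1 went from 13.9, 13.4 and 10.8 to 25.6, 33.7 and 23.98 FPKM (log2 difference 1.06 ± 0.26, adjusted p = 0.00235), still below the sham level of 224 ± 11.5. The brush border peptidases Anpep and Dpep1 rose from 11.1 ± 2.19 to 46.3 ± 5.6 and from 9.46 ± 5.36 to 40.4 ± 7.43 FPKM, and Ces1f from 2.9 to 18.7. The amino acid transporter Slc36a2, which is on the same list, rose from 0.183 to 6.43. It was near 0 in sham kidneys (0.0167 at 3 weeks), so it does not mark the proximal tubule in these data. Slc7a13, a transporter of the last proximal segment, was at 0.58, 0.25 and 0.53 FPKM at day 3 and 6.79, 6.08 and 0.64 at 3 weeks (log2 difference 1.63 ± 0.49, adjusted p = 0.00931), while sham kidneys held 415. Its call was lost without library 1 (log2 difference 1.24, adjusted p = 0.0566) or library 2 of 3 weeks (log2 difference 1.31, adjusted p = 0.051). Kap, an androgen-regulated protein of the proximal tubule, was at 537, 516 and 517 FPKM at day 3 and 1130, 1115 and 217 at 3 weeks. It did not pass (log2 difference 0.31 ± 0.44, adjusted p = 0.568), and passed without library 3 (log2 difference 1.10, adjusted p = 0.0004).

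Genes of mitochondrial energy supply fell by small amounts. Of 40 citrate cycle and respiratory chain genes 34 fell and 1, Cox6c, rose, with a median of -0.51. The increase of Cox6c was lost without library 1 or 2 of either time (adjusted p between 0.0656 and 0.174). The ATP synthase subunit Atp5b fell from 753 ± 31.6 to 426 ± 35.3 FPKM, and Idh3a, Cox5a and Mdh2 by 0.95, 0.95 and 0.77 on the log2 scale. Of 35 fatty acid oxidation genes 18 fell and 2 rose, 14 and 1 without library 3 of 3 weeks. Ppargc1a, a regulator of mitochondrial number, was at 9.28, 8.98 and 10.8 FPKM at day 3 and 9.04, 9.4 and 6.76 at 3 weeks, and its difference did not pass (log2 difference -0.19 ± 0.18, adjusted p = 0.367). Among 28 targets of the antioxidant factor NRF2 and iron-handling genes, 19 fell and 2 rose. Gclm, a subunit of the enzyme that starts glutathione synthesis, fell from 93.5 ± 5.34 to 25.4 ± 5.13 FPKM and glutathione reductase Gsr from 58.4 ± 1.79 to 21.3 ± 1.17, while Gstm1 rose from 108 ± 2.31 to 319.6 ± 22.6 and the myeloid metal transporter Slc11a1 from 8.35 to 35.9.

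Of 27 thick ascending limb and distal convoluted tubule genes 7 fell, a share near the 24.0% of all genes tested that fell, 3 rose and 17 did not pass. Genes of the distal convoluted tubule moved in both directions. Slc12a3, the thiazide-sensitive salt transporter, went from 97.04, 106 and 74.3 to 44.7, 46.03 and 18.9 FPKM (log2 difference -1.40 ± 0.30, adjusted p = 0.000822), calbindin Calb1 from 15.6 ± 1.94 to 2.64 ± 1.35 and Klotho, Kl, from 42.2 ± 4.82 to 11.3 ± 5.79, while Trpm6, a magnesium channel of the same segment, rose from 3.19 ± 0.244 to 7.96 ± 0.693 FPKM (log2 difference 1.10 ± 0.23, adjusted p = 0.000689). Umod was at 648, 568 and 468 FPKM at day 3 and 421, 432 and 316 at 3 weeks (log2 difference -0.53 ± 0.17, adjusted p = 0.0129), and its call was lost without library 1 of day 3 (log2 difference -0.42, adjusted p = 0.0673) or library 3 of 3 weeks (log2 difference -0.38, adjusted p = 0.0738). Of 26 collecting duct genes 11 fell and 2 rose. Against the sham change 5 of them were lower beyond the threshold (20.2% of all genes tested were). The vasopressin-regulated water channel Aqp2 went from 33.2, 50.05 and 36.3 to 4.16, 5.18 and 1.82 FPKM (log2 difference -3.17 ± 0.27, adjusted p = 9.46e-08), with no overlap, and Aqp3 fell from 29.1 ± 4.56 to 10.9 ± 2.47. The proton pump subunit Atp6v0d2 and the receptor Kit rose, from 23.6 to 43.7 and from 7.66 to 13.4 FPKM.

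Glomerular and vascular genes moved the other way. Of 20 podocyte genes 15 rose (32.2% of all genes tested rose) and 1, Cd2ap, fell, and of 26 endothelial genes 23 rose and 1, Plat, fell. Both decreases were lost without single libraries, Cd2ap without library 3 of either time (adjusted p = 0.0869 for day 3 and 0.0991 for 3 weeks) or library 2 of 3 weeks (0.0548), and Plat without library 1 or 3 of either time (largest adjusted p = 0.0951). Tcf21, a factor of podocytes and of interstitial fibroblasts, was at 22.8, 19.6 and 11.9 FPKM at day 3 and 87.6, 98.97 and 97.1 at 3 weeks (log2 difference 2.37 ± 0.28, adjusted p = 3.16e-06), and sham kidneys held 7.82 ± 4.7 and 9.18 ± 0.508 FPKM at the same times. Every late value exceeded every early one. The endothelial receptor genes Kdr, Tek and Flt1 rose by 1.46, 1.59 and 1.35 on the log2 scale, and Pecam1 from 33.5, 24.3 and 22.4 to 51.3, 48.04 and 60.3 FPKM. The summed podocyte genes were 672 to 724 FPKM at 3 weeks against 244 to 303 in sham kidneys, and the summed endothelial genes 931 to 1006 against 455 to 677. Fewer genes passed against the sham change: 9 podocyte and 14 endothelial genes were higher in that test (26.1% of all genes tested were). Between the sham groups the median log2 difference was 0.12 for the podocyte and 0.29 for the endothelial list.

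Hemoglobin transcripts were low at day 3 and within the range of the sham libraries at 3 weeks. Hba-a1 was at 40.5, 43.2 and 39.5 FPKM at day 3 and 716, 562 and 240.0 at 3 weeks (log2 difference 3.45 ± 0.46, adjusted p = 1.12e-05), against 309.6, 1060.2 and 227 and 469.8, 688 and 440.2 in the sham groups. All 3 day-3 UIR values lay below all others. Of 7 erythroid genes tested 5 rose, the 4 hemoglobin genes, which are near-identical pairs and uncertain singly, and Alas2, and Epb42 fell from 2.02 to 0.663 FPKM.

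Collagen and other matrix genes rose in all 3 late kidneys. Of 21 collagen chains tested 17 rose and none fell (median 1.48, all genes 0.056), with 16 higher and a median of 1.21 without library 3 of day 3. Col3a1, a fibrillar collagen of interstitial scar, was at 74.03, 48.6 and 16.5 FPKM at day 3 and 224, 239 and 251 at 3 weeks (log2 difference 2.57 ± 0.41, adjusted p = 7.06e-05). The early kidneys differed among themselves and the late ones hardly did, and sham kidneys held 4.86 ± 1.02 FPKM. Col1a1 went from 132, 82.1 and 35.1 to 273, 302 and 316 FPKM and Col1a2 from 85.3, 53.9 and 26.4 to 254, 272 and 283, with library 3 again the lowest at day 3. The microfibrillar chains Col6a1 and Col6a2 rose by 2.32 and 2.05 on the log2 scale. The basement membrane chain Col4a1 was at 179 ± 20.6 and 197 ± 27.4 FPKM and did not pass (adjusted p = 0.395), nor did Col18a1 (adjusted p = 0.834), Col4a5 (adjusted p = 0.772) and Col27a1 (adjusted p = 0.88). Relative to sham, Col4a1 differed by 2.42 ± 0.13 at day 3 and 2.27 ± 0.13 at 3 weeks, and Col18a1 by 2.41 ± 0.16 and 2.50 ± 0.16, as log2 differences ± SE.

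**Figure D4:**
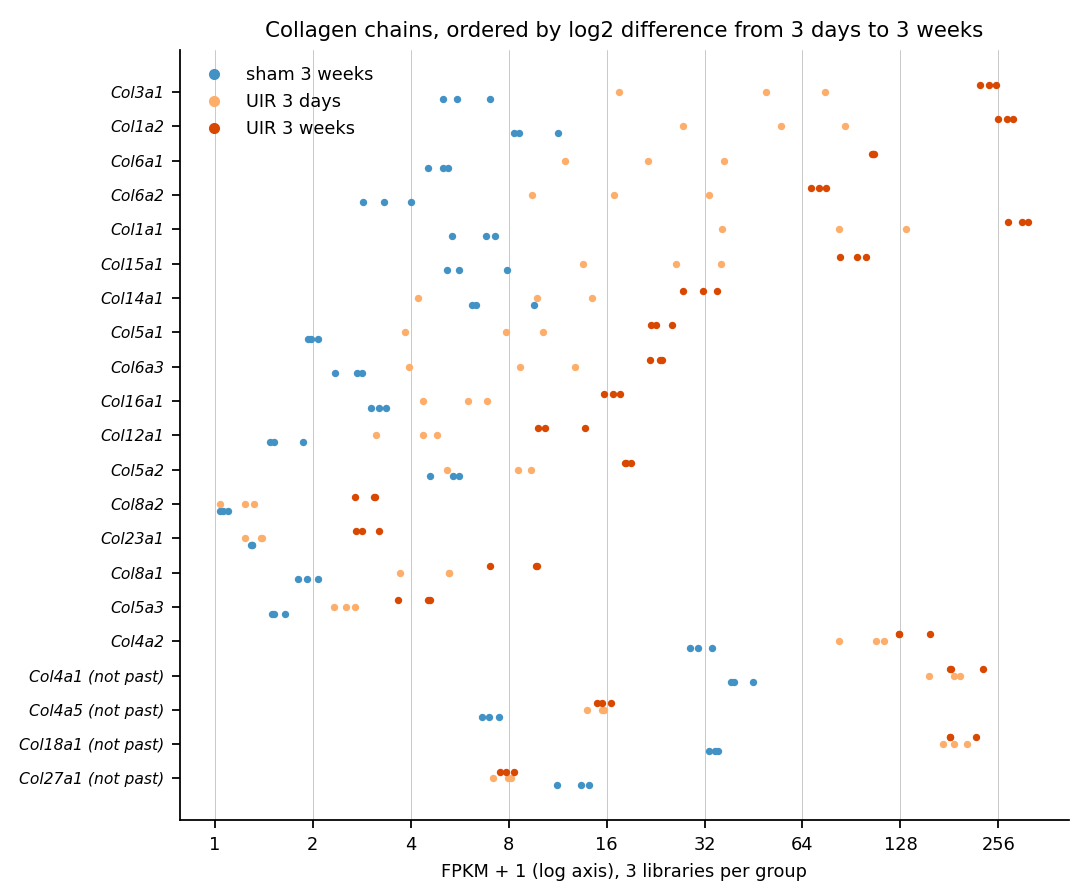
FPKM plus 1 on a log axis of 21 collagen chains in each of 3 libraries from sham kidneys at 3 weeks and UIR kidneys at 3 days and 3 weeks, ordered by the log2 difference between the UIR groups. Col3a1, Col1a2 and Col6a1 head the order, and the 4 chains marked as not past the threshold are at the bottom.

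Of 42 other matrix, crosslinking and remodelling genes 31 rose and 6 fell. Elastin, Eln, was at 7.53, 6.28 and 3.12 FPKM at day 3 and 51.4, 68.9 and 65.96 at 3 weeks (log2 difference 3.30 ± 0.31, adjusted p = 2.34e-07), and its microfibril partners Mfap4, Mfap5 and Ltbp2 rose by 3.78, 3.51 and 3.36 on the log2 scale. For each of these 4 genes every late value lay above every early one. Fibronectin, Fn1, rose from 38.5 ± 9.97 to 108 ± 15.8 FPKM and Timp1, an inhibitor of matrix proteases, from 29.4 ± 1.05 to 52.8 ± 8.53 (log2 difference 0.81 ± 0.24, adjusted p = 0.00987). Plau, the urokinase gene (209 ± 16.2 to 115 ± 29.1 FPKM, adjusted p = 0.0146, and 0.0794 without library 3 of 3 weeks), Loxl4 and Adamts1 were among those that fell.

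Of 28 pericyte and myofibroblast genes 25 rose and 2 fell. Pdgfra, a receptor of interstitial fibroblasts, was at 5.97, 4.29 and 1.62 FPKM at day 3 and 33.8, 33.9 and 34.2 at 3 weeks (log2 difference 2.93 ± 0.27, adjusted p = 1.9e-07), and Pdgfrb, which marks pericytes, rose from 20.6 ± 8.86 to 66.1 ± 2.28. The 3 late libraries were nearly equal for Pdgfra. Acta2, smooth muscle actin, the usual marker of myofibroblasts, was at 75.2, 62.6 and 33.4 FPKM at day 3 and 80.7, 87.3 and 83.01 at 3 weeks (log2 difference 0.62 ± 0.23, adjusted p = 0.0321). That increase was lost without library 3 of day 3 (log2 difference 0.28, adjusted p = 0.212) and without any of the 3 late libraries (adjusted p = 0.0565, 0.0788 and 0.0634). Renin, Ren1, made by the juxtaglomerular cells, fell from 273, 141 and 94.4 to 27.2, 62.6 and 17.8 FPKM, and the pericyte proteoglycan Cspg4 from 13.5 to 7.85.

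Macrophage genes rose as a group with a few exceptions. Of 37 tested 29 rose and 3 fell (median 1.91). Ctss, the lysosomal protease of antigen-presenting cells, was at 66.6, 49.4 and 25.1 FPKM at day 3 and 532, 437 and 623 at 3 weeks (log2 difference 3.56 ± 0.27, adjusted p = 2.27e-08). Adgre1, which encodes the macrophage surface marker F4/80, rose from 10.9, 6.39 and 3.23 to 40.5, 36.8 and 44.5 FPKM, Apoe from 304 ± 154 to 2698 ± 515, Gpnmb, a gene of lipid-laden macrophages, from 10.2 ± 2.79 to 123 ± 21.6, and Mrc1, the mannose receptor, from 8.87 ± 4.54 to 26.6 ± 2.16. In each of these the groups did not overlap, and library 3 was the lowest at day 3. Genes counted as markers of alternative activation or early wound macrophages went both ways. Retnla, from near 0, and Mrc1 rose (both above). Chil3 fell from 4.88, 2.18 and 1.79 to 0.37, 0.29 and 0.33 FPKM (log2 difference -1.49 ± 0.34, adjusted p = 0.00136) and Arg1 from 1.88, 2.27 and 0.6 to 0.6, 0.42 and 0.79 (log2 difference -0.63 ± 0.25, adjusted p = 0.0405). The Arg1 call was lost without library 1 or 2 of either time (adjusted p between 0.0791 and 0.189). Spp1 (above), which tubule cells also make, was the other listed gene that fell.

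Genes of class II antigen presentation rose with a single exception that did not pass. Of 29 dendritic cell and class II genes 28 rose and none fell (median 2.53), and 28 rose without library 3 of day 3 and likewise without library 3 of 3 weeks. H2-Aa, a class II chain, was at 244, 154 and 82.1 FPKM at day 3 and 1836, 1498 and 2202 at 3 weeks (log2 difference 3.64 ± 0.30, adjusted p = 6.62e-08). The late values exceeded every early one several times over, and sham kidneys held 64.1 ± 5.35 FPKM. Cd74, the invariant chain that escorts class II molecules, rose from 663 ± 369 to 4817 ± 961 FPKM. Itgax, which encodes CD11c, rose from 2.98 ± 0.868 to 51.6 ± 9.44 FPKM, and the dendritic cell chemokines Ccl17 and Ccl22 from 0.703 to 21.4 and from 0.24 to 16.8. Ccr7, the receptor of migrating dendritic cells and naive T cells, went from 0.08, 0.11 and 0.14 to 4.95, 4.12 and 8.49 FPKM.

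The promoter of H2-Aa (chr17:34287794-34288073, minus strand, RefSeq GRCm38.p6) is shown because class II genes share a CCAAT box downstream of their X box as a known part of their common control. Capitals mark CCAAT read on the opposite strand.
H2-Aa: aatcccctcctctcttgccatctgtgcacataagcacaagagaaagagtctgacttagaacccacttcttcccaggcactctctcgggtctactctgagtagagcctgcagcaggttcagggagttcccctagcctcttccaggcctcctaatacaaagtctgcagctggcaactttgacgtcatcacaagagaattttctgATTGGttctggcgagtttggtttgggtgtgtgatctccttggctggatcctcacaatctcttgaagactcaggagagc
Over the list, CCAAT was found in 10 of 23 promoters of 21 genes (43.5%), close to the 37.2% of promoters of tested genes, so these letters do not set the list apart.

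Class I presentation rose by less. Of 22 class I and immunoproteasome genes 17 rose and 2, the chaperones Calr and Pdia3, fell (Pdia3 not without library 2 of either time, adjusted p = 0.0931 and 0.104) (median 1.06), and 13 rose without library 3 of day 3. B2m, the light chain of class I molecules, rose from 969 ± 283 to 2154 ± 330 FPKM, and H2-T23, a non-classical class I gene, from 45.4 to 136.

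Lymphocyte genes rose from low levels. Of 39 T cell genes 37 rose and 1 fell (median 1.76). Cd3e, a chain of the T cell receptor complex, was at 7.41, 3.99 and 0.98 FPKM at day 3 and 18.4, 15.1 and 22.2 at 3 weeks (log2 difference 2.15 ± 0.34, adjusted p = 5.2e-05). Cd4 went from 3.78, 2 and 0.46 to 17.5, 16.2 and 18.4 FPKM and Cd8a from 6.63, 3.49 and 0.98 to 13.5, 10.4 and 14.7. In all 3 genes library 3 was the lowest at day 3 and every late library lay above every early one. Il7r, the receptor for the survival cytokine of T cells, rose most, from 0.443 ± 0.235 to 14.3 ± 1.03 FPKM. Of 13 natural killer and cytotoxic genes tested, out of 22 in the table, 11 rose and none fell. Low genes of this list can pass the filter through the late libraries alone, so its share of higher genes is tilted upward. The natural killer receptor genes Klrk1 and Klrd1 rose from 0.507 to 4.08 and from 0.983 to 7.42 FPKM, and Ccl5, a chemokine of T and natural killer cells, from 77.7, 41.1 and 13.8 to 116, 96.1 and 158 (log2 difference 1.74 ± 0.49, adjusted p = 0.00627). Without library 3 of day 3 the difference of Ccl5 shrank to 1.08 (adjusted p = 0.0392).

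Most B cell and plasma cell genes rose. Relative to sham, 7 were higher and 2 lower at day 3 (57.6% and 17.9% of all genes tested), and 16 higher and none lower at 3 weeks (60.7% and 20.1%). Of 17 tested, out of 28 in the table, 14 rose and 1 fell, Fkbp11, a secretory-pathway gene also found outside plasma cells. The filter tilts this share upward too, since low genes can pass it through the late libraries alone. Jchain, which links IgA and IgM antibodies and marks plasma cells, was at 2.65, 1.15 and 0.35 FPKM at day 3 and 48.2, 32.4 and 67.9 at 3 weeks (log2 difference 4.46 ± 0.28, adjusted p = 3.15e-09), against 2.81 ± 0.303 in sham kidneys. The B cell receptor component Cd79a rose from 0.69, 0.29 and 0.34 to 2.95, 2.62 and 3.68 FPKM (log2 difference 1.51 ± 0.13, adjusted p = 1.31e-07), and relative to sham its log2 difference was -0.37 ± 0.13 at day 3 (adjusted p = 0.0177) and 1.15 ± 0.13 at 3 weeks (adjusted p = 6.75e-07). Ms4a1, which encodes CD20, was below the filter and untested, with 0.03, 0.03 and 0.08 FPKM at day 3 and 1.26, 0.82 and 0.95 at 3 weeks. B cell transcripts were therefore present at 3 weeks at low levels throughout. Cd22 and Cd79b rose from 0.61 to 6.09 and from 0.967 to 5.58 FPKM.

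Genes that organise lymphoid tissue were raised at 3 weeks in 12 of 17 cases tested, out of 25 in the table, and lowered in none. The same tilt of the filter applies to low genes here. Tnfsf13b, which encodes BAFF, the survival factor of B cells, was at 3.74, 2.13 and 1.01 FPKM at day 3 and 41.1, 37.8 and 45.4 at 3 weeks (log2 difference 3.77 ± 0.21, adjusted p = 8.39e-10). The chemokines that guide lymphocytes into lymphoid zones followed: Ccl19 went from 9.85, 8.33 and 3.51 to 81.2, 61.4 and 87 FPKM, Ccl21a, which has near-identical copies, from 11.4, 3 and 1.92 to 35, 46.8 and 74.7, and Cxcl12 from 14.7 ± 7.26 to 131 ± 10.3. None of these groups overlapped. Cxcl13, the B cell attractant of follicles, rose from 0.7, 0.47 and 0.29 to only 2.71, 1.58 and 1.79 FPKM (log2 difference 1.02 ± 0.17, adjusted p = 8.24e-05), Ltb, lymphotoxin beta, from 4.04 ± 2.22 to 32.97 ± 7.7, and Icosl, a costimulator of T cells, from 7.07 to 30.4. The receptor Ltbr (54.2 and 52.5 FPKM, adjusted p = 0.592) and Nfkb2, the subunit its signal activates (49.9 and 49.4, adjusted p = 0.898), did not pass, nor did Il7, Bcl6 and Ccl21b.

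**Figure D5:**
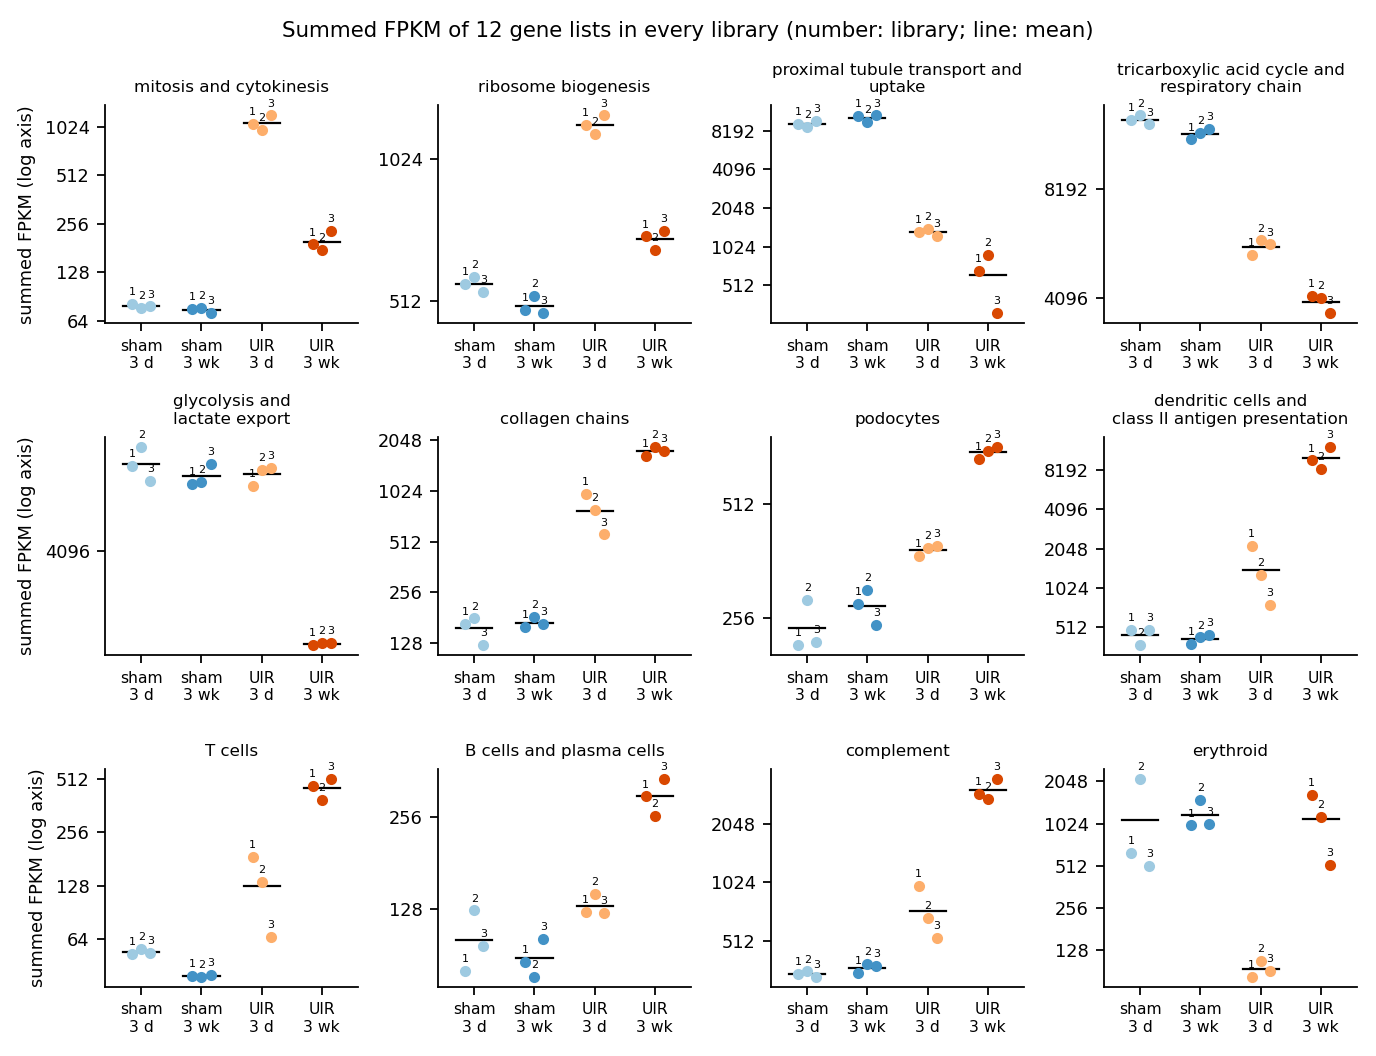
Summed FPKM of all members of 12 gene lists in each library of the sham and UIR groups at 3 days and 3 weeks, on a log axis, with a line at each group's mean and the library number above each point. The collagen, class II, T cell and complement sums rise from day 3 to 3 weeks in UIR kidneys, those of mitosis and ribosome biogenesis fall, and in the collagen, class II, T cell and complement panels UIR library 3 is the lowest of day 3.

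Of 24 chemokines 18 rose and 2 fell (median 1.71). Those that fell attract monocytes and neutrophils: Ccl2, for monocytes, was at 64.8, 68.3 and 57.2 FPKM at day 3 and 32.2, 39.5 and 25.4 at 3 weeks (log2 difference -0.97 ± 0.30, adjusted p = 0.0114), and Cxcl1, for neutrophils, at 41.98, 47.5 and 56.2 and 19.6, 23.4 and 19.4 (log2 difference -1.18 ± 0.45, adjusted p = 0.0342). Neither pair of groups overlapped, but the Ccl2 call was lost without library 3 of 3 weeks (log2 difference -0.81, adjusted p = 0.0536), and that of Cxcl1 without library 2 or 3 of day 3 (0.0685 and 0.0963 as adjusted p) or any late library (adjusted p between 0.0521 and 0.0794). Ccl8 was at 1.31, 2.33 and 0.11 FPKM at day 3 and 58.5, 49.95 and 104 at 3 weeks (log2 difference 5.06 ± 0.30, adjusted p = 1.81e-09), and Cxcl9, an interferon-gamma target that attracts T cells, rose from 2.59, 3.11 and 1.04 to 28.5, 14.8 and 32.6 (log2 difference 3.01 ± 0.37, adjusted p = 4.69e-06). Ccr2, the receptor for Ccl2 on monocytes, rose from 11.5 ± 4.34 to 44.5 ± 8.65 FPKM while its ligand fell. Among 33 cytokines, growth factors and receptors 20 rose and 3 fell. Il1b rose from 2.37, 1.75 and 2.12 to 15.5, 15.6 and 36.8 FPKM and its antagonist Il1rn fell from 22.1, 22.7 and 32.3 to 11.1, 9.7 and 19.4. Il33, an alarmin, rose from 9.62 ± 2.12 to 44.7 ± 7.95 FPKM, Igf1 from 1.75 ± 0.703 to 12.8 ± 1.25, and Tgfb1, the main inducer of fibrosis, from 66.03, 51.6 and 48.8 to 74.5, 80.8 and 93.8 (log2 difference 0.58 ± 0.15, adjusted p = 0.00314), which did not differ from the sham change beyond the threshold (adjusted p = 0.0791). Gdf15 and Tnfrsf12a, genes of stressed epithelium, fell from 41.8 ± 1.62 to 16.1 ± 4.81 and from 145 ± 13.8 to 46.5 ± 3.52.

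Of 34 interferon-stimulated genes 24 rose and 1, Oasl1, fell (median 1.11). Ifit3, an antiviral effector, was at 12.8, 11.8 and 9.56 FPKM at day 3 and 47.8, 41.2 and 36.3 at 3 weeks (log2 difference 1.79 ± 0.24, adjusted p = 1.07e-05), with no overlap, and Oas2, Zbp1 and Mx1 rose by 1.80, 2.13 and 1.66 on the log2 scale. The Ifit3 promoter (chr19:34583279-34583558, plus strand, RefSeq GRCm38.p6) is shown for its pair of interferon elements, set in capitals. Read on the opposite strand, such an element is GAAA, any 2 letters and GAAA again.
Ifit3: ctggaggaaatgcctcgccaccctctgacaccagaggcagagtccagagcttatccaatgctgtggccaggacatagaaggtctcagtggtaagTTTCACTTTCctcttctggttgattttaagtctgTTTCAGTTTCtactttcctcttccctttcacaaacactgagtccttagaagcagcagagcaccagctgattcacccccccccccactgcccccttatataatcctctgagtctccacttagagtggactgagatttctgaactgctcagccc
Such an element was found in 15 of 30 promoters of 24 listed genes, against 3.26% of promoters of tested genes and 3.44% of all promoters.

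Most complement genes rose. Of 22 tested 18 rose and 1, Cfb, fell from 76.1 ± 4.98 to 51.1 ± 4.68 FPKM (median 1.89). The C1q chains C1qa and C1qc, made by macrophages, rose from 98.3 ± 42.8 to 593 ± 121 and from 67.8 ± 30.6 to 398 ± 79.1 FPKM. Serping1, the C1 inhibitor, was at 70.4, 45.3 and 23.5 FPKM at day 3 and 429.5, 419.7 and 520.1 at 3 weeks (log2 difference 3.40 ± 0.31, adjusted p = 1.94e-07), with no overlap. C3, the central component, was at 191, 99.4 and 112 FPKM at day 3 and 203, 209 and 228 at 3 weeks (log2 difference 0.72 ± 0.21, adjusted p = 0.00897), and its call was lost without library 2 of day 3 (log2 difference 0.54, adjusted p = 0.0571).

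Genes of p53 signalling and cell cycle arrest did not fall with the cell cycle as a group. Of 28 tested 11 fell (39.3%, against 24.0% of all genes tested) and 7 rose (25.0%, against 32.2%), with a median of -0.06. Cdkn1a, which encodes p21, the cell cycle inhibitor induced by p53, was at 57.2, 67.5 and 74.7 FPKM at day 3 and 66.9, 68.9 and 82.7 at 3 weeks (log2 difference 0.13 ± 0.26, adjusted p = 0.684). The 2 groups overlapped and both were far above sham, with 3.45 ± 0.88 and 4.18 ± 0.922 FPKM. Cdkn2a, the locus of p16 and p19, used as a marker of senescence, was listed at 0 in all 6 sham libraries of these times, at 0.47, 0.54 and 0.07 FPKM at day 3 and at 2.15, 3.24 and 1.52 at 3 weeks (log2 difference 1.27 ± 0.15, adjusted p = 4.26e-06). Sesn1 and Btg2 rose by 1.24 and 1.12 on the log2 scale, and the p53 targets Ccng1, Perp and Eda2r fell by 0.82, 0.97 and 0.96. Psrc1 and the cell cycle inhibitor Cdkn2c fell by more, 1.79 and 1.13.

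Markers of other cells and tissues changed less. Of 13 neutrophil and mast cell genes tested, out of 21 in the table, 5 rose and 1 fell. The share that rose, 38.5%, was near the 32.2% of all genes tested. Only 3 were higher without library 3 of 3 weeks, without library 2 of day 3, or under median-of-ratios or quantile scaling. S100a9, a main neutrophil transcript, was at 13.8, 11.2 and 6.44 FPKM at day 3 and 5.86, 9.53 and 29.9 at 3 weeks and did not pass (log2 difference 0.25 ± 0.52, adjusted p = 0.713). Its late values overlapped the early ones, library 3 being the highest. Of 18 clock genes 3 rose, Nr1d1 from 9.93 ± 3.23 to 36.9 ± 9.56 FPKM, 1 fell and 14 did not pass. The shares that rose and fell, 16.7% and 5.6%, were below the 32.2% and 24.0% of all genes tested. Of 7 adipose genes 1 rose and 1 fell (14.3% each). Lpl, which other cells also express, rose from 26.8 ± 2.81 to 104 ± 15.6 FPKM. The summed adipose list was 58.98 to 77.2 FPKM at day 3 and 124 to 165 at 3 weeks, below the sham sums of 359.7 to 448 at 3 weeks. Only 3 skeletal muscle or adrenal genes could be tested, and their summed list stayed between 4.27 and 8.09 FPKM in the 6 UIR libraries. Of 11 androgen-dependent genes 3 rose and 3 fell (27.3% each), near the 32.2% and 24.0% of all genes tested. Without library 2 or without library 3 of day 3, 1 was higher, and 1 under median-of-ratios scaling.

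Between the sham groups the 5 genes that passed from 3 days to 3 weeks were Usp6nl (0.66 ± 0.10) and Fchsd1 (0.80 ± 0.13), higher, and Cyp4a14 (-3.39 ± 0.45), Snord34 (-2.23 ± 0.35) and Krt7 (-0.73 ± 0.11), lower, as log2 differences ± SE; Usp6nl, Fchsd1 and Snord34 were chosen after their values were seen. Cyp4a14, a fatty acid hydroxylase with close copies, was at 176, 153 and 173 and then 5.58, 21.4 and 26.7 FPKM in sham kidneys, and at 0.883 ± 0.392 and 0.503 ± 0.224 in UIR kidneys. Krt7, a keratin of the collecting duct and urothelium, fell from 80.6 ± 8.88 to 48.2 ± 4.61 FPKM in sham kidneys and was at 126 ± 2.59 and 145 ± 8.7 in UIR kidneys (adjusted p = 0.123). The sham decrease of Cyp4a14 was lost without library 1 or 2 of the day-3 sham group (adjusted p = 0.0577 and 0.0878). That of Krt7 was lost without any sham library but library 3 of day 3 (adjusted p between 0.073 and 0.148).

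The change in UIR kidneys differed from the sham change for 259 of 315 named genes tested (46.2% of all genes tested), which were chosen in part for their change in UIR kidneys. Among these were Retnla, Mmp12, Havcr1, Mki67, Lrp2, Hnf4a, Aqp2, Col3a1, H2-Aa, Cd3e, Jchain and Tnfsf13b, with adjusted p values of 0.00429 (Col3a1) or less. A further 41 named genes passed between the UIR groups but not in this test, among them Lcn2 (adjusted p = 0.0884), Sox9 (adjusted p = 0.0594), Ccl2 (adjusted p = 0.0663), Cxcl1 (adjusted p = 0.125), Myc (adjusted p = 0.118), Umod (adjusted p = 0.589), Kdr (adjusted p = 0.0605), Pecam1 (adjusted p = 0.184) and Slc7a13 (adjusted p = 0.0661).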

How the data were processed

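RNA-seq of mouse kidney tissue gave 18 libraries in 6 groups of 3, labelled as biological replicates and grouped by their sample titles. The authors deposited 1 table of FPKM per gene and library for the whole series. Per the submitters' processing notes, HISAT2 2.0.4, Bowtie2 2.2.5, RSEM 1.2.12 and mm9 were used; their roles are not given in the sources used here. FPKM carry no read depth, so depth is unknown and no counting interval is given. Near-identical genes can share or lose reads in such values.

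Genes at 1 FPKM or more in at least 3 of 18 libraries (14716 of 20825) entered limma 3.58.1 (R 4.3.3) with variance trend, on log2(FPKM + 1), with a mean per group over all 18 libraries. Tests were two-sided, with Benjamini-Hochberg adjustment over all genes tested and a threshold of 0.05. Libraries were compared by exact permutation (scipy 1.17.1). The fit was also run on simulated data with few changed genes and independent noise. In these data 56.2% of genes passed and single libraries stood apart, so that run does not cover them. 27 symbols stored as dates were restored, and RefSeq's gene table held 20766 of the gene IDs. Promoters are RefSeq's on GRCm38.p6 and no mm9 coordinates were used.

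Named genes are the 15 largest increases and decreases between the UIR groups (past the threshold, mean of at least 5 FPKM, groups not overlapping), a short panel, up to 6 members of each list in its main direction and 3 in the other, all members of the collagen and lymphoid tissue lists, and the 5 largest sham changes each way under the same conditions. Some genes that this rule names are not reported here. The comparison, panel and lists were chosen with earlier results of these data known. Same-numbered UIR libraries of the 2 times did not deviate together (r = -0.09, 0.03 and -0.07), so numbers were not used as pairs. Alternatives changed the pseudocount, filter, scaling, libraries in the fit, weights, variance trend and replicate block, and left out each library in turn.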

Additional observations from a re-analysis of the deposited data

Results flagged for a closer look

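For a pair of named genes a change passed between the sham groups and differed from the change in UIR kidneys. For Cyp4a14 the log2 change from 3 days to 3 weeks was 3.08 higher in UIR than in sham kidneys (adjusted p = 0.00102, limma with Benjamini-Hochberg adjustment). Sham kidneys fell from 167 ± 12.5 to 17.9 ± 11 FPKM (SD, n = 3), while UIR kidneys were near 0 at both times. For Krt7 the log2 change was 0.93 higher in UIR kidneys (adjusted p = 0.000125), with 80.6 ± 8.88 and 48.2 ± 4.61 FPKM in sham kidneys and 126 ± 2.59 and 145 ± 8.7 in UIR kidneys. Both sham changes were lost when single sham libraries were left out.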

How the results depend on the processing

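No difference of a named gene past the threshold changed sign. Of those between the UIR groups that did not pass, 9 had the other sign under at least 1 alternative: Slc34a1 (-1.44 to 0.07), Kap (-0.09 to 1.1), S100a9 (-0.38 to 0.71), Il7, Col18a1, Col27a1, Col4a5, Ltbr and Nfkb2. The counts of 4738 higher and 3530 lower genes, and of 6800 whose change differed from sham, stayed within 1.5 times under each alternative run. Leaving out 1 UIR library gave 4251 to 4424 higher and 3058 to 3319 lower. The 5 sham calls did not hold: a pseudocount of 0.1 gave 12, a pseudocount of 5 gave 2, median-of-ratios scaling 8, quantile normalization 11, library weights 1756, and leaving out 1 sham library 0 to 419. The cause was not tested. Higher genes made up 50.9% of the calls with a filter of 5 FPKM and 61.4% with none, for fewer and more genes tested. With the replicate block, though the numbers do not pair the libraries, 4653 genes were higher and 3485 lower. Of 315 named genes tested, 298 to 304 kept their side of the threshold when 1 UIR library was left out, and 306 under quantile normalization. A filter of 5 FPKM left 22 T cell, 4 cytotoxic and 7 B cell genes higher, since fewer were tested. Of 18 clock genes 7 were higher with only the groups compared in the fit and 6 with library weights, against 3. Genes near 1 FPKM have the least precise differences, and depth is unknown, so no limit from counting is given.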

Other observations

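Several gene families that belong to no list above were followed by symbol after their values were seen, and are described without a test of the family. Of 17 aminoacyl-tRNA synthetases 16 fell (24.0% of all genes tested fell) and none rose, with a median log2 difference of -0.69. Iars, which charges isoleucine tRNA, fell from 40.1 ± 1.29 to 19.1 ± 0.852 FPKM (log2 difference -1.03 ± 0.12, adjusted p = 1.85e-06). All 8 subunits of the TCP1 chaperonin, which folds actin and tubulin, fell, Cct3 from 108 ± 6.88 to 55.4 ± 1.01 FPKM. Of 74 mitochondrial ribosomal protein genes 59 fell and none rose (median -0.41), Mrpl12 from 83.9 ± 4.87 to 42.1 ± 2.09 FPKM. Of 81 cytosolic ribosomal protein genes 8 rose and 7 fell (median 0.04), against a median of -0.41 between the sham groups. That balance depends on the setting: without library 3 of 3 weeks 3 were higher and 11 lower, under median-of-ratios scaling 2 and 11, and under quantile normalization 16 and 9. The 37 proteasome genes split: 26 fell, such as the core subunit Psmb5 from 106 ± 3.67 to 60.7 ± 4.25 FPKM, and the 2 that rose were the immunoproteasome subunits Psmb8, from 37.99 ± 13.9 to 81.5 ± 11.3, and Psmb9, from 22.1 ± 11.1 to 47.1 ± 6.08.

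Of 8 GIMAP GTPases, lymphocyte survival genes that endothelium also expresses, 7 rose and none fell, Gimap3 from 6.31 ± 4.26 to 41.4 ± 2.401 FPKM (log2 difference 2.74 ± 0.31, adjusted p = 1.86e-06). For these and the families below, the shares over all genes tested were 32.2% higher and 24.0% lower. All 4 SLAM family receptors tested rose, Slamf7 from 0.857 ± 0.575 to 17.5 ± 2.08 FPKM. Low members such as Slamf6 (0.293 to 2.81 FPKM) can pass the filter through the late libraries alone, which tilts this count upward. Of 13 cathepsins 11 rose and none fell, Ctsk, a collagen-degrading protease, from 3.21 ± 1.18 to 32.6 ± 4.52 FPKM. Among 12 apolipoproteins 7 fell, Apoa2 from 9.21 ± 0.696 to 1.02 ± 0.189 FPKM, and 3 rose, including Apoe. Of 15 claudins, tight junction proteins, 8 rose and 3 fell. The shares of claudins that fell and of apolipoproteins that rose were no higher than over all genes tested. The cation pore claudin of proximal segments, Cldn2, fell from 139 ± 5.89 to 49.6 ± 15.8 FPKM and Cldn5, of endothelium and podocytes, rose from 6.76 ± 0.595 to 15.2 ± 2.84. Of 31 Hox genes 15 rose and 2 fell, Hoxd11 from 2.11 ± 0.393 to 8.29 ± 1.08 FPKM. Under quantile normalization 15 Hox genes were higher and 2 lower.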
